A study of Mus musculus with 6 samples.

Results

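The miRNAs of the imprinted Dlk1-Dio3 region were followed in bone marrow-derived progenitor cells of male adult mice. They were chosen by name, as 49 hairpins known from this region, from mmu-miR-770 at the Meg3 end through mmu-miR-665, mmu-miR-127 and mmu-miR-341 to the large cluster with mmu-miR-494, mmu-miR-381 and mmu-miR-410, and every array probe for either arm of such a hairpin was taken, which gave 98 of the 1900 mouse miRNA probes. In the mouse the region holds Dlk1, Rtl1 and Dio3, which are expressed from the paternal chromosome, and the non-coding transcripts Meg3, Rian and Mirg, which are expressed from the maternal one. The miRNAs are cut from maternal transcripts that run in the same direction as Meg3, so neighbouring hairpins can come from one long precursor, and each hairpin can give a mature miRNA from its 5′ arm (5p) and its 3′ arm (3p). They are known for high levels in embryo, placenta and brain, and activity of the maternal transcripts has been linked to the quiescence of long-lived haematopoietic stem cells.

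The 3 db/db samples came from mice homozygous for a leptin receptor mutation, which are obese and type 2 diabetic, and the 3 db/+ samples from in-colony littermates that carry 1 mutant copy, so both groups hold the db allele. Mononuclear marrow cells of both groups spent 4 days in the endothelial medium EGM-2, were washed free of non-adherent cells and were kept for 3 more days. From 1 µg of total RNA each sample was tailed, tagged, stained with Cy5 and hybridised to 1 array, on which every miRNA probe has 2 spots. The labels do not say whether samples came from separate animals, so the p-values reflect only how these samples vary, and with 3 arrays a group the number of arrays limits every value.

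The cultures read high for miRNAs of several cell types. The endothelial miR-126a-3p read 15.6 to 35.7 times the median blank spot of its array, the myeloid miR-223-3p 96.1 to 282.0 times, and the stromal miR-199a-3p 30.7 to 112.7 times, while none of the 4 probes for the neuronal miR-124 and miR-9 read more than 1.44 times. Not every arm of such miRNAs was bright: miR-126a-5p read at most 1.15 times, the myeloid miR-511-5p 1.38 times and the stromal miR-143-5p 1.33 times. The muscle miR-206-3p read 2.83 to 6.95 times, and the other muscle probes at most 1.48 times. All arrays were measured against their 4 blank spots, whose median lay between 39.1 and 97.2. In these bulk samples a lower level per cell and fewer cells that hold the miRNA cannot be told apart. The pan-haematopoietic miR-142a-3p and miR-142a-5p had log2 differences of 0.95 (SE 0.56) and 0.68 (SE 0.43) between db/db and db/+ cells, while the myeloid miR-511-3p and miR-223-5p had -0.68 (SE 0.20) and -0.47 (SE 0.15), with groups that do not overlap, and miR-223-3p had 0.55 (SE 0.33). Each of these had a limma adjusted p of 0.89, and the groups did not overlap for 9.65% of all tested probes. The 4 myeloid probes had a median of -0.28, as did the 9 stromal probes. The part of these cell types in the values below was not tested.

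The mature sequences of the miRNAs that the results turn on are given from RefSeq (GRCm38.p6, chromosome 12, plus strand), each the same as the target listed on the array, with the seed, bases 2 to 8 counted from the 5′ end, in capitals. miR-341 and miR-665 are shown with both arms because their arms differ in signal, as is miR-381.
mmu-miR-341-5p: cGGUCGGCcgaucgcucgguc
mmu-miR-341-3p: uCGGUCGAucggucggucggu
mmu-miR-665-5p: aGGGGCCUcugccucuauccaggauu
mmu-miR-665-3p: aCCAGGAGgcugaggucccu
mmu-miR-381-5p: aGCGAGGUugcccuuuguauauu
mmu-miR-381-3p: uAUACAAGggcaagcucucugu
mmu-miR-485-3p: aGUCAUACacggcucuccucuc
mmu-miR-494-3p: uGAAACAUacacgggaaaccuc
mmu-miR-329-3p: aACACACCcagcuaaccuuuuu
mmu-miR-127-3p: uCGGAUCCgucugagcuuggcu
mmu-miR-758-5p: uGGUUGACcagagagcacacg
mmu-miR-1197-5p: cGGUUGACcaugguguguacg

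The miR-341-5p sequence is rich in G and C, at 76.2% of its bases, the highest share among the 98 members, whose median was 50%. The miR-758-5p and miR-1197-5p sequences hold the same seed, as does 1 further pair of arms for each of 6 other seeds, so 14 member probes in all share a seed with another member. No other array probe holds the seed of either arm of miR-341 or miR-665. The seed of miR-329-3p is also that of miR-362-3p, which is not one of these miRNAs.

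Of the 98 mature members, 94 matched a RefSeq entry letter for letter. Those entries span 180 kb on the plus strand, and each of the 49 hairpins was placed by at least 1 arm. The order along the chromosome begins with miR-770 and ends with miR-410. Of the 48 with a hairpin entry, 1 lies inside Meg3, 10 inside Rtl1 (miR-673 to miR-136, with miR-665 among them), 3 inside Rian and 8 inside Mirg, with 26 in none of these gene bodies. The mature miR-341-5p lies at chr12:109611521-109611541, inside Rian together with miR-1188 and miR-370. The mature miR-665-3p lies at chr12:109586368-109586387 and miR-381-5p at chr12:109726829-109726851. No 2 of the 3 are adjacent hairpins, and miR-381-5p lies farther from miR-665-3p and miR-341-5p than those lie from each other.

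Most of these miRNAs read close to the blanks. A probe was counted as detected on an array when its mean signal was above the 95th percentile of the blank spots, and 16 of the 98 members (16.3%) were detected on all 6 arrays, against 35.3% of all miRNA probes. Only miR-341-5p, miR-485-3p and miR-494-3p read at least 2 times the blank median on every array, which is 3.06% of the members and 17.3% of all probes. A further 15 members did so on some arrays, so that 18 did on 1 or more. The arms miR-376c-5p, miR-379-3p, miR-380-5p and miR-539-3p were above the limit on none.

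**Figure D1:**
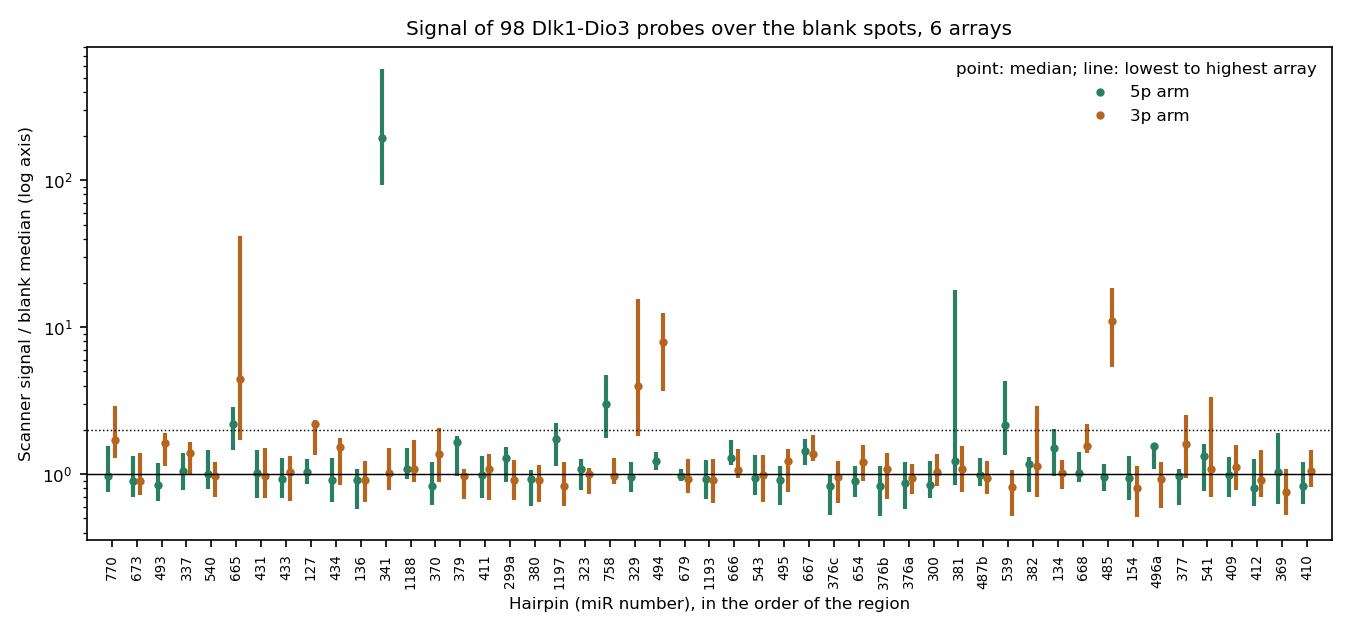
Scanner signal over the median blank spot (log axis) for the 98 probes, with hairpins in chromosome order; points are medians and lines run from the lowest to the highest of the 6 arrays, in green for 5p and brown for 3p arms. The solid line marks the blank median and the dotted line 2 times that value, and miR-341-5p stands alone at 93.1 to 567.8 times.

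The brightest member against the blanks was miR-341-5p, with scanner signals of 9054, 13036 and 4658 for db/+ cells against 22348, 32070 and 13390 for db/db cells. Its partner miR-341-3p read 98.1, 65.6 and 56.6 and then 66.3, 55.1 and 57.2, which is 0.784 to 1.5 times the blank median. One arm of this hairpin was thus far above the blanks on every array and the other was above the limit on only 2 arrays. Its neighbours in Rian, miR-1188 and miR-370, read at most 2.05 times the blank median.

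By their lowest array, the next members were both 3p arms of the large miR-379 to miR-410 cluster. The miR-485-3p probe read 1324, 1176 and 210.3 for db/+ and 360.4, 959.4 and 621.2 for db/db cells, or 5.38 to 18.4 times the blank median. The miR-494-3p probe read 716.1, 460.1 and 144.3 and then 378.4, 543.6 and 907.4, or 3.69 to 12.4 times. Both miRNAs were thus above the blanks in every sample of both genotypes, and their scanner signals overlapped between the groups. Inhibition of miR-494 and of miR-329 is known to improve blood flow recovery after limb ischaemia in mice.

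The other members detected on all arrays read close to the blanks on at least 1 array. The miR-665-3p probe, from the Meg3 end, ran from 1.72 to 41.6 times the blank median and miR-329-3p from 1.83 to 15.6 times, so that their brightest arrays lay above those of miR-494-3p. The miR-758-5p and miR-1197-5p arms, which share a seed, read at most 4.70 and 2.24 times the blank median, miR-539-5p at most 4.29 times and miR-770-3p, from the Meg3 end, at most 2.89 times. The miR-127-3p arm, from a hairpin antisense to Rtl1 that can direct cleavage of the Rtl1 transcript, read at most 2.35 times. The others in this set were miR-493-3p, miR-665-5p, miR-666-5p, both arms of miR-667 and miR-668-3p.

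Detection differed widely between arrays. The members above the limit numbered 38, 46 and 84 for db/+ and 92, 27 and 19 for db/db cells, and the same arrays stood out among all miRNA probes, with 971, 1125 and 1701 and then 1855, 851 and 751 of 1900. Per array this made 56 ± 24.6 members (SD, n = 3) for db/+ against 46 ± 40.0 (SD, n = 3) for db/db, with a two-sided exact permutation p of 0.60, where 0.10 is the smallest that 3 against 3 arrays allow. The groups overlapped, and by this limit db/+ replicate 3 and db/db replicate 1 were the high arrays. Without db/+ replicate 3 the difference of -10 members became 4, and without db/db replicate 3 it became 3.5, so its direction rested on single arrays. Without db/db replicate 1 it was -33. At the blank median plus 5 SD, the counts were 23, 18 and 19 for db/+ and 42, 15 and 7 for db/db. There db/+ replicate 3 did not stand out, so the ranking of the arrays depended on the limit.

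**Figure D2:**
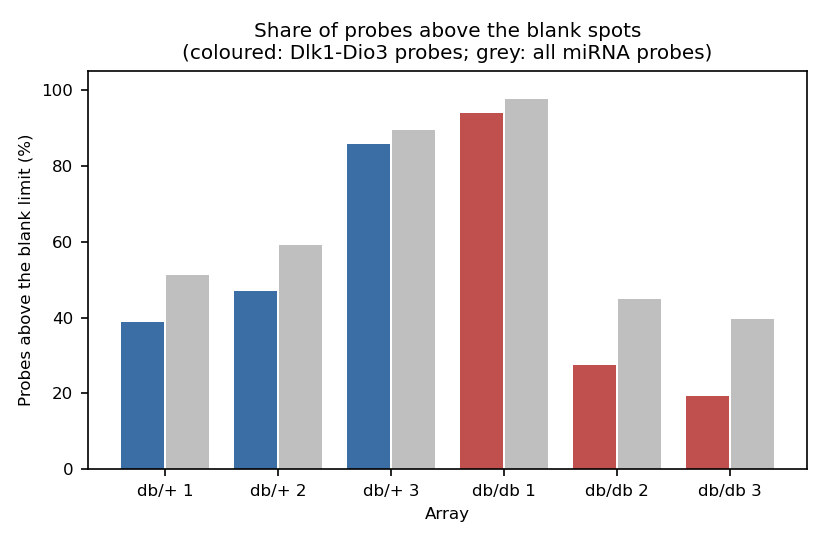
Share of probes above the blank limit on each array in percent, with coloured bars for the 98 Dlk1-Dio3 probes (blue db/+, red db/db) and grey bars for all 1900 miRNA probes. The share of members lies between 19.4% and 93.9% and is below that of all probes on every array.

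The comparison of db/db with db/+ cells asked which of these miRNAs differ with the diabetic genotype. No member passed. Values were background-corrected, quantile-normalized and put on the log2 scale, probes detected on at least 3 of 6 arrays were tested with limma, and p-values were adjusted by Benjamini-Hochberg over all 1181 tested probes. This kept 50 of the 98 members (51.0%, against 62.2% of all probes), from 39 of 49 hairpins. Of them 0 had an adjusted p under 0.05, as for all tested probes, of which 0% were called. The 48 members that were not tested read at most 1.57 times the blank median on any array, and no difference in them was detectable at this signal. Among them were both arms of miR-136, miR-154, miR-376c, miR-380, miR-412, miR-431, miR-433, miR-540, miR-673 and miR-1193. Passing the filter did not set a member clear of the blanks. The tested miR-376a-3p and miR-134-3p read at most 1.17 and 1.26 times the blank median.

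At an unadjusted limma p under 0.05 there were 6 of 50 members (12%), against 5.0% of all tested probes. Higher in db/db cells by this measure were miR-341-5p, miR-665-3p, miR-381-5p and miR-494-3p, and lower were miR-329-3p and miR-127-3p. For 8 of 50 members (16%) the 3 values of one group lay wholly to one side of the other, against 9.65% of all tested probes. Of these, miR-341-5p and miR-494-3p were higher in db/db cells, and miR-127-3p, miR-299a-5p, miR-329-3p, miR-337-5p, miR-376b-3p and miR-541-5p were lower. Of the lower ones, miR-299a-5p, miR-337-5p, miR-376b-3p and miR-541-5p had unadjusted limma p-values between 0.078 and 0.58.

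Most differences were small. The log2 difference lay within 0.5 of 0 for 45 of 50 members, and it was below 0 for 33 (66%), against 54.3% of all tested probes. Its median was -0.10 over the members and -0.02 over all tested probes, and its mean over the members was 0.06, of the opposite sign to the median. With the blank median subtracted the medians were -0.56 and -0.11, and over probes detected on all 6 arrays they were 0.092 for the 16 members and -0.0048 for all, so the sign of the median depended on the filter. Standard errors ran from 0.11 to 0.96 with a median of 0.16. The offset of 50 added before the log compresses differences of dim probes, so a small value here bounds the difference in signal and not tightly that in miRNA level.

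**Figure D3:**
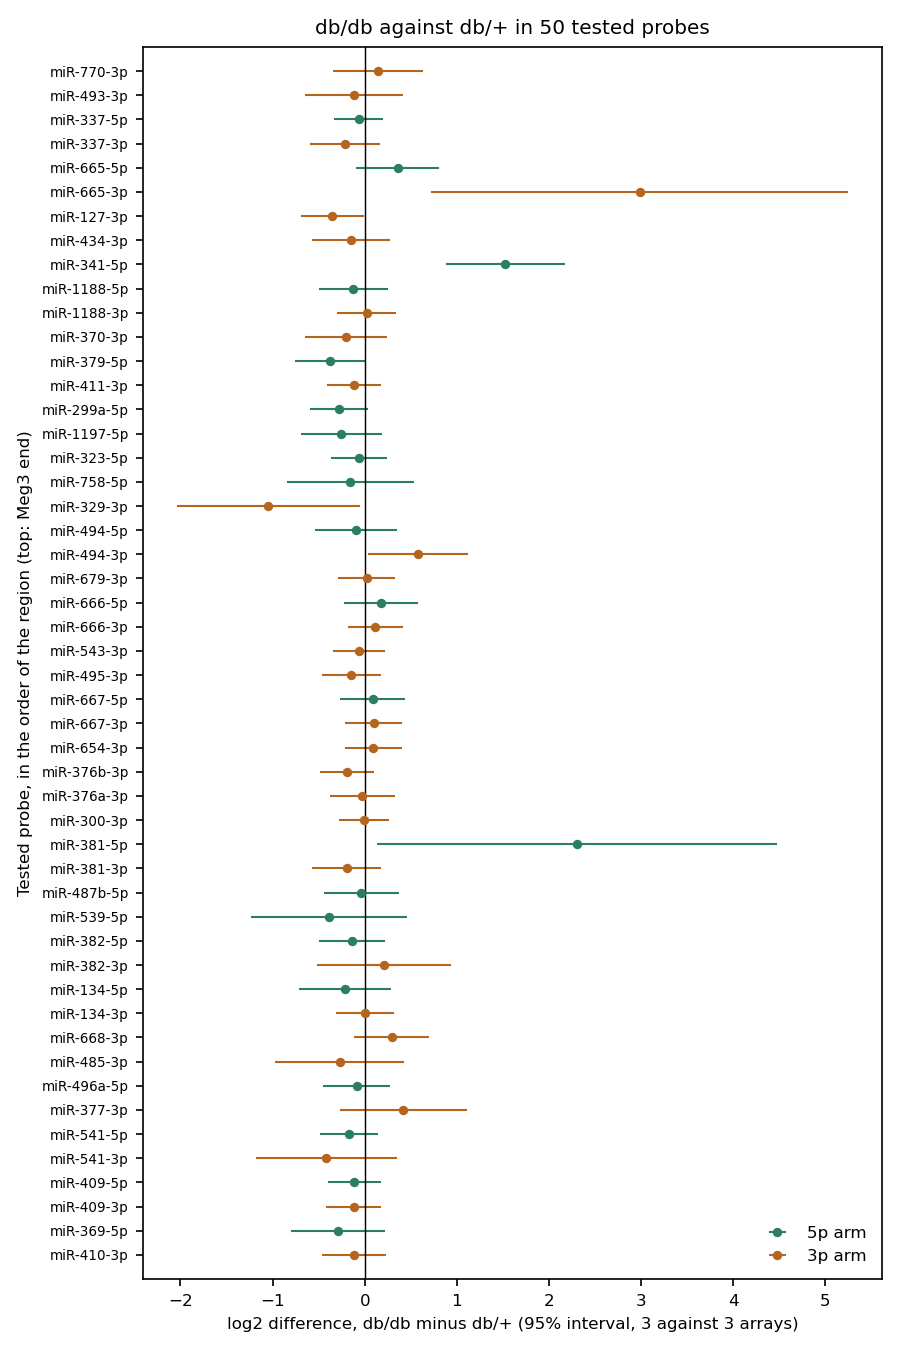
Log2 difference (db/db minus db/+) with its 95% interval for the 50 tested probes, from the Meg3 end of the region at the top to miR-410 at the bottom, in green for 5p and brown for 3p arms. The points of miR-665-3p (2.98), miR-381-5p (2.30) and miR-341-5p (1.53) lie to the right of all others, and miR-329-3p (-1.04) to the left.

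The miR-341-5p probe had normalized log2 intensities of 12.51, 13.32 and 13.04 in db/+ cells and 14.81, 14.59 and 14.05 in db/db cells. Every db/db value was above every db/+ value, and the brightest db/+ array lay 0.73 below the dimmest db/db array. The log2 difference was 1.53 (95% interval 0.88 to 2.17, SE 0.27), or 2.88-fold, with a limma adjusted p of 0.32. By unadjusted p it ranked 3 among the 1181 tested probes. With a prior variance that follows the mean intensity the adjusted p was 0.017, and 0.013 with a robust fit of that trend, so the call turned on how limma models the variance. Over all alternatives the adjusted p ran from 0.013 to 1.0.

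Taken on each array against the median of the other tested members, the miR-341-5p difference was 1.62 with a two-sided exact permutation p of 0.10, the smallest the design allows. The median of the tested members lay between 6.39 and 6.60 on every array, near the floor set by the offset, so this value nearly restates the difference of the probe itself, which was singled out with earlier results known. The other tested probes inside Rian had log2 differences of -0.12 for miR-1188-5p, 0.02 for miR-1188-3p and -0.20 for miR-370-3p, with standard errors of 0.14 to 0.19. In the authors' deposited table the miR-341-5p values were 5647, 10461 and 8399 for db/+ and 27586, 24055 and 14814 for db/db cells, with no overlap either.

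The miR-665-3p probe had normalized log2 intensities of 6.89, 6.82 and 8.19 in db/+ cells and 11.28, 7.95 and 11.62 in db/db cells. The groups did not overlap in the authors' deposited table, at 46.8, 36.0 and 236.8 for db/+ and 2057, 350 and 2683 for db/db. Nor did they over the blank median, where db/db replicate 2 read 5.52 times and db/+ replicate 3 read 3.43 times. By the normalized values, only db/db replicates 1 and 3 were high, and db/db replicate 2 lay below the highest db/+ array. The difference was 2.98 (95% interval 0.72 to 5.25, SE 0.96), the largest of the 1181 tested probes in size, with a limma adjusted p of 0.89. Against the median of the other tested members the difference was 3.08 (two-sided exact permutation p of 0.20), which likewise nearly restates it. Without db/db replicate 2 the difference was 4.09 and the adjusted p 0.032; that leaves 2 db/db arrays. Scaling to the 75th percentile of probes detected on all arrays also made a call, with an adjusted p of 1.2e-09 under 1 common SD for all probes, and over all alternatives the adjusted p ran from there to 1.0.

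The 2 spots of miR-665-3p did not read alike on every array. They read 519 and 104 on db/db replicate 2, a ratio of 4.97, and were 2.10-fold apart on db/+ replicate 1 and 2.24-fold on db/+ replicate 3. On the arrays where the probe was bright they were 1.14-fold apart (db/db replicate 1) and 1.23-fold (db/db replicate 3). With the lower spot in place of the mean, a setting chosen after seeing the data, the difference was 2.96 with an adjusted p of 0.88. Across the array, 4 to 20 of 1900 spot pairs differed by more than 2-fold, and 5 of the 98 members had such a pair on some array: miR-665-3p, miR-369-5p, miR-382-3p, miR-541-3p and miR-666-3p.

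The miR-381-5p probe was also brightest on db/db replicates 1 and 3. On db/db replicate 2, where miR-665-3p read 5.52 times the blank median, it read 0.90 times. Its scanner signal was 81.7, 86.6 and 43.1 in db/+ cells and 394.8, 51.1 and 1315 in db/db cells, and its normalized log2 values were 6.07, 6.54 and 6.07 and then 9.11, 6.24 and 10.25. It was near the blanks on 4 arrays and bright on db/db replicates 1 and 3, where its spots were 1.11-fold and 1.24-fold apart. The log2 difference was 2.30 (SE 0.92) with a limma adjusted p of 0.89, and 3.4 with an adjusted p of 0.032 without db/db replicate 2. Without db/db replicate 3 it was 1.43. Over all alternatives its adjusted p ran from 1.1e-04 to 1.0. Of the 1181 tested probes, 5 exceeded every other array by more than 1 on the log2 scale on both db/db replicates 1 and 3. These were miR-665-3p (by 3.09), miR-381-5p (2.57), miR-7239-3p (2.21), miR-672-3p (1.08) and miR-711 (1.003). Their set was defined by the pattern of miR-665-3p, so its size is a description only. Within that set no pair shares a run of more than 5 bases. The longest run that miR-381-5p shares with any other array probe is 12 bases, with miR-377-5p, which read 0.619 to 1.09 times the blank median, and that of miR-665-3p is 9 bases, with mmu-miR-7051-5p, whose log2 difference was 0.00204. The longest of miR-341-5p is 8 bases, with mmu-miR-6965-3p, whose log2 difference was 0.31 (SE 0.16). These runs count identical bases between array targets only, and binding with mismatches or of other RNAs was not tested.

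**Figure D4:**
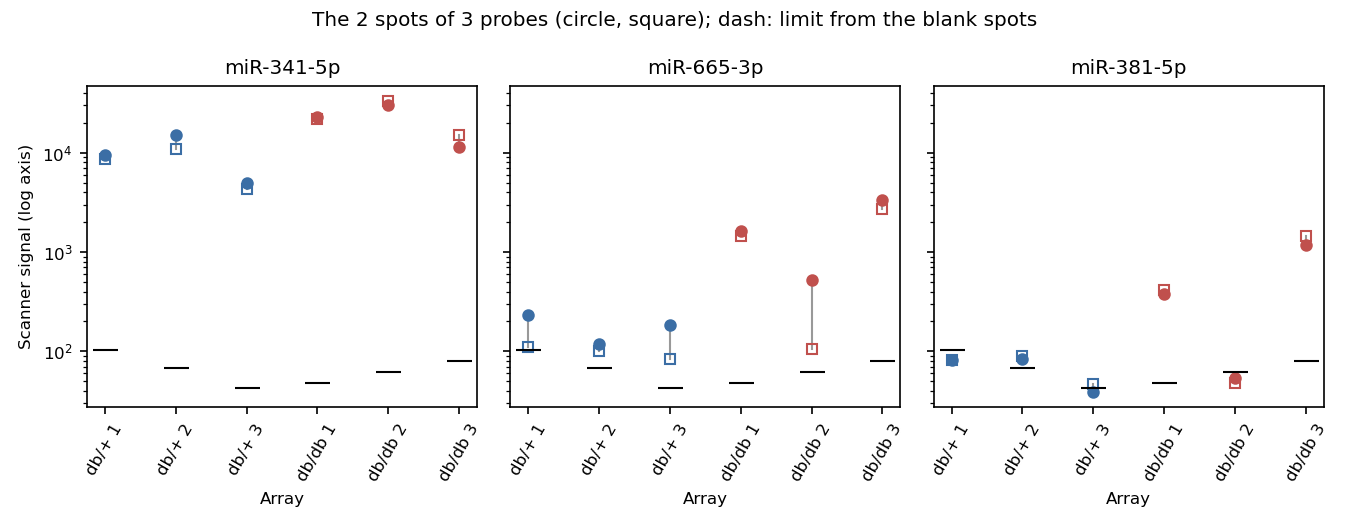
Scanner signal (log axis) of the 2 spots (filled circle and open square) of miR-341-5p, miR-665-3p and miR-381-5p on each of the 6 arrays, blue for db/+ and red for db/db, with a dash at the limit from the blank spots. Both spots of miR-665-3p and miR-381-5p are high on db/db 1 and db/db 3, and those of miR-665-3p read 519 and 104 on db/db 2.

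The partner arms of miR-665-3p and miR-381-5p had smaller differences. The miR-665-5p probe had log2 values of 6.72, 7.30 and 6.76 in db/+ and 7.25, 7.45 and 7.16 in db/db cells, with a difference of 0.36 (SE 0.19), and miR-381-3p had a difference of -0.20 (SE 0.16). Both arms were tested for 11 hairpins, and the sign was the same in 6 of them. The gap between the arms was 2.62 for miR-665, 2.50 for miR-381 and 0.67 for miR-494, and 0.01 for miR-409 and for miR-667. A further 28 hairpins had 1 tested arm and 10 had none.

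The arrays also differ in a spike control, an added oligonucleotide with a perfectly matching probe, which was bright on db/+ replicates 1 and 2 and db/db replicate 2 and dim on the other 3. The miR-341-5p difference was 1.68 within the bright arrays, 1.39 within the dim ones and 1.53 (SE 0.30) with this split as a block. The miR-665-3p difference was 1.09 within the bright arrays, 3.26 within the dim ones and 2.18 (SE 0.46) with the block, and that of miR-381-5p was -0.07, 3.61 and 1.77. The db/db arrays on which the last 2 probes were high are the dim ones; the db/+ array among the dim ones, replicate 3, read 8.19 for miR-665-3p, the highest of the db/+ arrays, and 6.07 for miR-381-5p, which was not. The part of this split in the values was not tested further. The adjusted p with the block was 0.48 for miR-341-5p and miR-665-3p and 0.73 for miR-381-5p.

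Of the other named members, miR-494-3p had log2 values of 8.93, 8.61 and 8.45 in db/+ and 9.06, 8.98 and 9.69 in db/db cells. The groups did not overlap, but the nearest values were 0.05 apart, and the difference was 0.58 (SE 0.23), or 0.36 without db/db replicate 3. Its partner miR-494-5p had -0.09 (SE 0.19).

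The miR-329-3p probe had 8.08, 9.66 and 8.46 in db/+ and 7.94, 7.92 and 7.20 in db/db cells, a difference of -1.04 (SE 0.42). The highest value was that of db/+ replicate 2, and without that array the difference was -0.57. For miR-127-3p the values were 7.26, 7.20 and 7.46 and then 6.93, 7.13 and 6.80, a difference of -0.35 (SE 0.14). The limma adjusted p was 0.89 for all 3 of miR-494-3p, miR-329-3p and miR-127-3p.

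**Figure D5:**
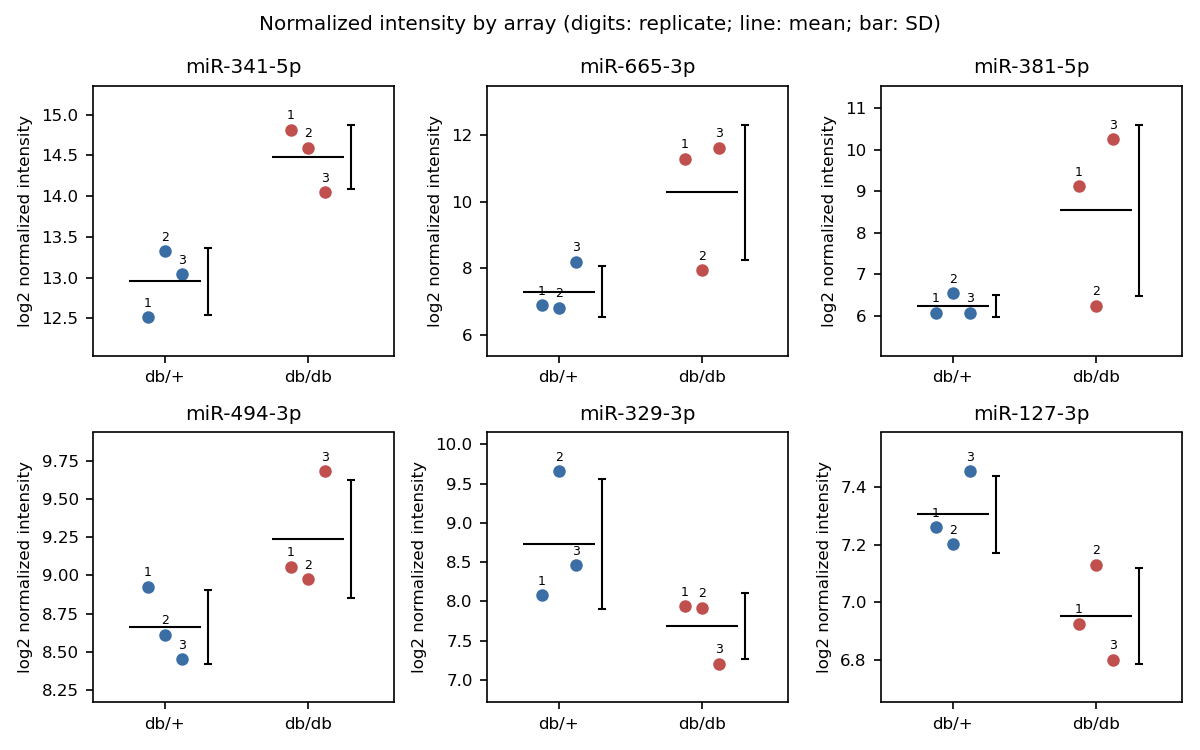
Normalized log2 intensity of the 6 members with an unadjusted p under 0.05, by group, with each array as a point marked by its replicate number, the mean as a line and the SD as a bar (n = 3). Each panel has its own axis; the groups do not overlap for miR-341-5p, miR-494-3p, miR-329-3p and miR-127-3p, while db/db replicate 2 lies among the db/+ arrays for miR-665-3p and miR-381-5p.

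Members detected on all arrays with smaller differences were spread around 0. Below 0 were miR-539-5p (-0.39), miR-485-3p (-0.27), miR-1197-5p (-0.25), miR-758-5p (-0.16) and miR-493-3p (-0.12). Above 0 were miR-668-3p (0.29), miR-666-5p (0.17), miR-770-3p (0.14), miR-667-3p (0.10) and miR-667-5p (0.09). Leaving out single arrays moved miR-539-5p between -0.73 and -0.032, miR-485-3p between -0.54 and -0.10 and miR-1197-5p between -0.40 and -0.086; the lowest and highest came without db/+ replicates 2 and 1, without db/+ replicate 3 and db/db replicate 1, and without db/+ replicates 3 and 1. It moved miR-668-3p down to 0.14 and miR-666-5p to 0.073, both without db/db replicate 3, and miR-667-3p to 0.018 without db/+ replicate 3. Standard errors with all arrays lay between 0.13 and 0.36, and every adjusted p was at least 0.89. The miR-758-5p and miR-1197-5p arms, which share a seed, had intervals that include 0, from -0.85 to 0.53 for miR-758-5p.

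By position in the region, the medians ran from -0.25 to 0.04, with few tested probes outside the large cluster. At the Meg3 end, from miR-770 to miR-665, 6 of 12 probes were tested and their median log2 difference was 0.04. This grouping is by position and not by host gene. Of these hairpins only miR-770 lies inside the Meg3 gene body, and miR-673, miR-493, miR-337, miR-540 and miR-665 lie inside that of Rtl1, as do miR-431 to miR-136. Of the 10 probes of the 5 hairpins from miR-431 to miR-136, antisense to Rtl1, 2 were tested, miR-127-3p and miR-434-3p, with a median of -0.25. The 4 tested of 6 probes between these and the large cluster, miR-341 among them, had a median of -0.05. In the miR-379 to miR-410 cluster 38 of 70 probes were tested, 26 of them below 0, with a median of -0.10. Without miR-341-5p, miR-665-3p and miR-381-5p the median of the remaining 47 members was -0.11 and their range ran from -1.04 to 0.58.

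Other miRNAs of the region that are not among the 49 hairpins gave 12 probes, of which 6 were tested with a median log2 difference of -0.09. The brightest of these against the blanks, miR-3072-5p, read 6.70 to 13.4 times the blank median and had a difference of -0.38 (SE 0.19). Imprinted miRNAs of other regions, among them miR-483 of Igf2 and miR-335 of Mest, gave 10 probes, 8 tested, with a median of -0.07. The miR-483-5p probe read 8.06 to 24.8 times the blank median and had a difference of 0.11 (SE 0.22). None of these 14 tested probes had an adjusted p under 0.05 or an unadjusted p under 0.05.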

How the data were processed

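Arrays of 6 samples were read from the scanner files, in which each spot has a median brightness, a linear intensity without a background estimate, per the file headers. Each array has 3968 spots, 168 of them controls and 4 of them blank. The deposited table of probe values is also a linear intensity, background-subtracted and scaled by the authors in a way not given in the sources used here; it served as an alternative, as log2 of the deposited value plus 16. All sample columns were matched to samples.

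Background correction used normexp with all spots in the fit and an offset of 50. The miRNA spots were then quantile-normalized and log2-transformed, and both spots of a probe were averaged. Groups were compared with limma 3.58.1 in R 4.3.3 (lmFit, eBayes, Benjamini-Hochberg at 0.05) over probes detected on at least 3 of 6 arrays. Spot pairs correlated between 0.983 and 0.989, array pairs between 0.93 and 0.98, and no pair of arrays held identical values. The steps were tested on simulated arrays: with no probe changed the share of unadjusted limma p-values under 0.05 was close to 0.05, and with 200 changed the share of false calls ran somewhat above the set rate. The SD of each simulated probe was drawn at random from those of all probes. The simulation therefore could not test a variance that follows the mean intensity. Figures were drawn with matplotlib 3.10.9.

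The members, lists and tests were chosen with earlier results of these data known. Named were all arms of miR-341 and miR-665, members detected on all 6 arrays, those at an unadjusted p under 0.05 and their partner arms, 30 probes in all, with further probes named by their counts. Lists of region, imprinted and cell-type miRNAs are described by counts and medians only. The labels give both groups the same replicate numbers. Deviations of same-numbered arrays correlated at -0.04, -0.003 and 0.03, so the numbers were not taken as pairs. Correlations of differently numbered arrays ran from -0.37 to 0.37, and their cause was not tested. Alternatives covered normalization, background, filters, variance models, array weights, the deposited table, the spike split and leaving out each array.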

Additional observations from a re-analysis of the deposited data

How the results depend on the processing

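Of 24 alternatives, 4 made calls among the members. Scaling to the 75th percentile of probes detected on all arrays called 2, miR-665-3p (2.90, adjusted p 1.2e-09) and miR-381-5p (2.09, adjusted p 1.1e-04), with 4 over all probes; there limma estimated the same SD of 0.497 for every probe, which understates the spread of these 2. The eBayes trend and its robust form called 1 member each, miR-341-5p, and 2 probes in all. Leaving out single arrays gave 0 to 2 members and 0 to 3 probes, the members called being miR-665-3p and miR-381-5p without db/db replicate 2. Over all probes 1 was called with 75th percentile scaling over all probes, offset 16, the deposited table, probes on all 6 arrays, blank median plus 5 SD, or the lower spot (the last chosen after seeing the data).

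The median log2 difference was -0.18 with 75th percentile scaling over detected probes (all tested probes -0.10), -0.56 with the blank median subtracted (all tested probes -0.11), -0.18 in the deposited table and 0.092 over the 16 members on all 6 arrays; without single arrays it lay between -0.11 and -0.071. At blank median plus 5 SD, 5 members were detected on all 6 arrays and the difference in detected members was 1.33. With the limit at the 95th percentile of the blank spots, that difference ran from -33 to 4 without single arrays. These alternatives were tabulated for the 20 named members that were tested. Signs turned for small differences: miR-666-3p (-0.021), miR-667-3p (-0.022) and miR-667-5p (-0.045; -0.0063 over all probes) with 75th percentile scaling; miR-493-3p with the deposited table (0.15) and without db/+ replicate 3 and db/db replicate 1 together (0.17), a setting chosen after seeing the data, where miR-770-3p was -0.026; and miR-758-5p with the spike block (0.014), where miR-1188-3p (-0.025), miR-496a-5p (0.0083) and miR-487b-5p (0.0027), not among the 20, turned too. Leaving out single arrays turned miR-494-5p (-0.25 to 0.034), miR-758-5p (-0.44 to 0.14), miR-493-3p (-0.29 to 0.11), miR-667-5p (-0.032 to 0.15) and miR-770-3p (-0.036 to 0.34). The cause was not tested.

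With the replicate number as a block, though the numbers did not pair the arrays, 0 members and 0 probes were called, and the adjusted p was 0.62 for miR-341-5p and miR-665-3p. No scan or slide was named in the file headers, so a fit with it as a block was not run. The 48 untested members read too close to the blanks for a difference to be read, and some tested members read as low.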
